A study of Saccharomyces cerevisiae with 18 samples.

Results

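CUP1-1, CUP1-2, CRS5, CUP2, CTR1 and CTR3 are among the genes of budding yeast (Saccharomyces cerevisiae) for binding, sensing and importing copper. They were taken from the probe annotation of a 2-colour microarray by gene symbol, 6 genes of 5365 annotated ones, each with 1 probe of the 6912 on the array. All 6 had a value on at least 2 arrays of every treatment and so were among the 5096 genes tested. The genes were chosen by their log2 ratios in all 3 treatments of these same arrays, which were known beforehand. Their ratios are therefore a description, with no test, and tests are given for other genes of copper, metal and heat shock biology.

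Cells of strain S288C grew with shaking at 25 °C in YPD, a rich medium of peptone, yeast extract and glucose, to an optical density of 1. Cultures were then exposed for 2 h to 3 mM o-nitrophenol, 5 mM m-nitrophenol or 1.5 mM p-nitrophenol, with 3 independent biological samples per isomer, each on 1 array (9 arrays). The isomers are phenols that carry a nitro group at different positions of the ring, and their doses differed. Cy5 marked the RNA of treated cells and Cy3 the RNA of cells sampled before the chemical was added, and the scanner read every array at a high and at a low laser power. A value is a log2 ratio, read as treated over before treatment, so that 1 stands for a doubling. That direction is likely from the dyes in the labels but is not stated with the values. There was no untreated culture at 2 h and no dye swap, so growth for 2 h and dye effects are part of each ratio.

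Arrays numbered 1 stood apart in every treatment. Pearson's r across genes, which are not independent of one another, was 0.50 to 0.61 between array 1 and the other arrays of an isomer, and 0.84 to 0.88 between arrays 2 and 3. They also held fewer values, 3797, 1970 and 4369 genes for o-, m- and p-nitrophenol, against 5155 to 5343 on the other arrays. Member values are therefore also given without them. The median of all tested genes was -0.17 in o-nitrophenol, 0.04 in m-nitrophenol and 0.10 in p-nitrophenol.

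Yeast metallothioneins are small cysteine-rich proteins that hold copper in the cytosol and protect the cell from an excess of it. Cup2, also called Ace1, is the transcription factor that senses copper and switches on the metallothionein genes, while a second factor, Mac1, switches on copper import when copper is scarce. The plasma membrane carries 2 high-affinity importers, Ctr1 and Ctr3, which take up copper after surface reductases have reduced it. CUP1 is also known to be activated by the heat shock factor Hsf1.

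CUP1-1 and CUP1-2 are copies of the main metallothionein gene and lie in a tandem repeat. CUP1-1 stood at 5.79, 5.68 and 4.92 on o-nitrophenol arrays 1, 2 and 3, at 1.33, 2.12 and 1.07 on the m-nitrophenol arrays, and at 2.67, 0.60 and 0.71 on the p-nitrophenol arrays. All 9 values lay above 0, and every o-nitrophenol array lay above every other array, with a gap of 2.26 between the lowest o-nitrophenol and the highest p-nitrophenol value. The mean was 5.46 ± 0.47 in o-nitrophenol, a 44.1-fold level, 1.51 ± 0.55 in m-nitrophenol (2.84-fold) and 1.33 ± 1.16 in p-nitrophenol (2.51-fold) (SD, n = 3 each). CUP1-1 ranked 13 of the 5096 tested genes by its o-nitrophenol mean, 267 by its m-nitrophenol mean and 370 by its p-nitrophenol mean.

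CUP1-2 stood at 5.55, 5.69 and 5.03 on the o-nitrophenol arrays, at 0.88, 2.14 and 1.10 on the m-nitrophenol arrays, and at 2.69, 1.53 and 0.74 on the p-nitrophenol arrays. The means were 5.42 ± 0.35 in o-nitrophenol (42.9-fold), 1.37 ± 0.68 in m-nitrophenol and 1.65 ± 0.98 in p-nitrophenol (SD, n = 3 each). The o-nitrophenol arrays again did not overlap with the others, while m- and p-nitrophenol arrays overlapped. The CUP1 copies are near-identical, so a probe for one can bind transcripts of both, and the probes give no separate levels. They differed by 0.20 on average over the 9 arrays and by at most 0.93, on p-nitrophenol array 2.

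CRS5 encodes the second, more diverged yeast metallothionein; the RefSeq table of the S288C assembly lists its locus as a pseudogene. CRS5 stood at 4.07, 4.44 and 4.01 on the 3 o-nitrophenol arrays. It stood at 1.04 and 2.10 on m-nitrophenol arrays 2 and 3, and at 0.44 and 0.01 on p-nitrophenol arrays 2 and 3, with no value on array 1 of either isomer. No isomer overlapped with another: o-nitrophenol was highest on every array, m-nitrophenol in between and p-nitrophenol close to 0. The means were 4.17 ± 0.23 in o-nitrophenol (18.03-fold, n = 3), 1.57 ± 0.76 in m-nitrophenol (2.97-fold, n = 2) and 0.22 ± 0.30 in p-nitrophenol (1.17-fold, n = 2) (SD).

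**Figure D1:**
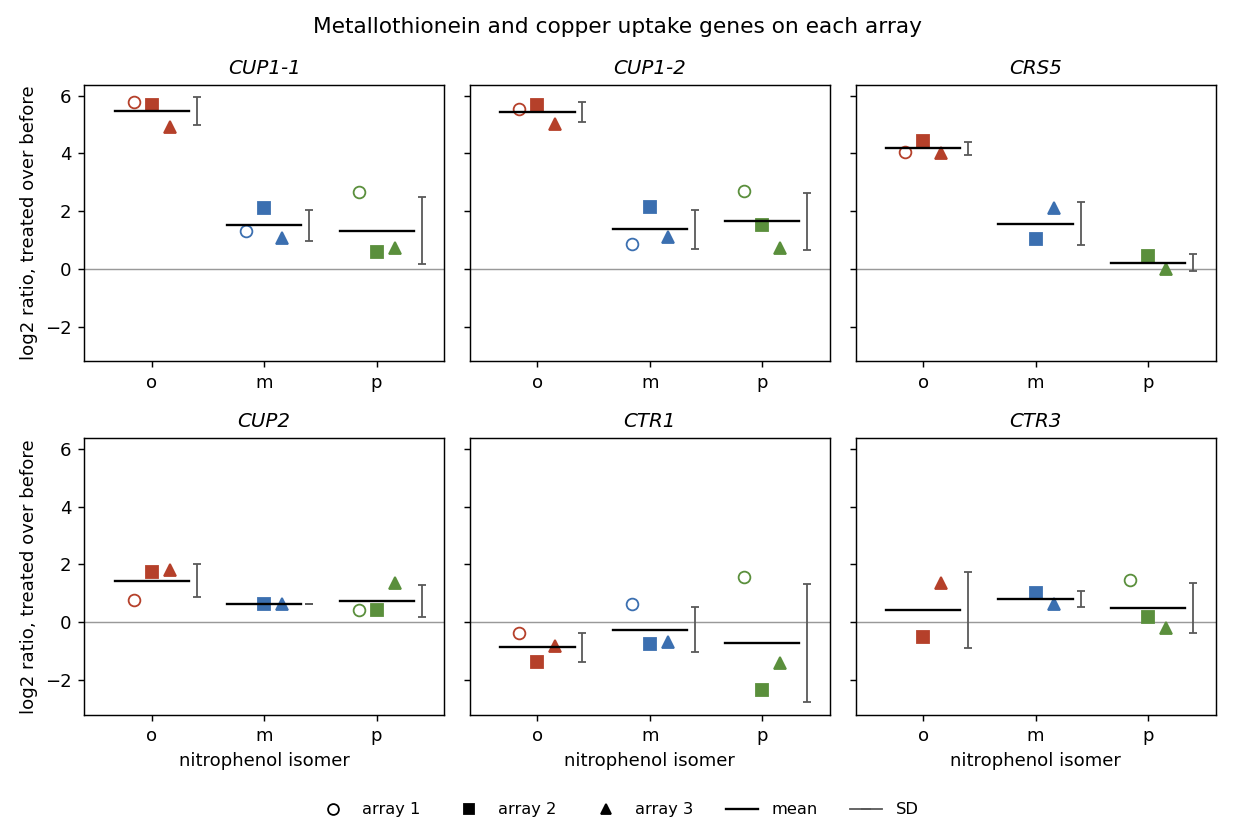
Log2 ratio of treated over before-treatment RNA for each gene (y axis), with the o-, m- and p-nitrophenol arrays side by side (x axis). Points are arrays (open circles, array 1), black lines means and grey bars the SD over arrays with a value (2 or 3). The o-nitrophenol points of CUP1-1, CUP1-2 and CRS5 lie between 4.01 and 5.79, above every m- and p-nitrophenol point of these genes (at most 2.69), while CTR1 and CTR3 overlap in every pair of isomers.

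CUP2, the gene of the copper-sensing activator itself, lay closer to 0. It stood at 0.77, 1.72 and 1.81 on the o-nitrophenol arrays, at 0.63 and 0.62 on m-nitrophenol arrays 2 and 3, and at 0.42, 0.42 and 1.36 on the p-nitrophenol arrays. The o-nitrophenol arrays lay above both m-nitrophenol arrays but overlapped with the p-nitrophenol arrays. The means were 1.43 ± 0.57 in o-nitrophenol (2.70-fold, n = 3), 0.63 ± 0.01 in m-nitrophenol (1.54-fold, n = 2) and 0.73 ± 0.54 in p-nitrophenol (1.66-fold, n = 3) (SD).

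3 of the 6 members, the metallothionein genes, had every o-nitrophenol array above every m- and p-nitrophenol array, a pattern shown by 6.57% of all tested genes. With CUP2, 4 of 6 lay above every m-nitrophenol array (14.1% of all genes), while 3 of 6 lay above every p-nitrophenol array (10.8%). The same 4 genes were above 0 on every array with a value (13.4% of all genes). The members were chosen on these values, so nothing is read from the counts. Set side by side, o-nitrophenol exceeded p-nitrophenol by 4.14 ± 0.57 for CUP1-1, 3.77 ± 0.54 for CUP1-2 and 3.95 ± 0.46 for CRS5, and exceeded m-nitrophenol by 3.96 ± 0.57, 4.05 ± 0.54 and 2.603 ± 0.46 (log2 difference of means ± standard error of the fit, at unequal doses). For m- minus p-nitrophenol the differences were 0.18 ± 0.57 for CUP1-1, -0.28 ± 0.54 for CUP1-2 and 1.35 ± 0.51 for CRS5. The 3 differences share arrays, as each isomer enters 2 of them.

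CTR1, the main high-affinity copper importer, did not share this pattern. Its symbol was once used for the choline transporter gene HNM1 as well, and the probe was matched by gene identifier to the copper transporter. CTR1 stood at -0.38, -1.39 and -0.83 on the o-nitrophenol arrays, at 0.63, -0.74 and -0.67 on the m-nitrophenol arrays, and at 1.56, -2.34 and -1.41 on the p-nitrophenol arrays. It was below 0 on arrays 2 and 3 of every isomer, and above 0 on array 1 of m- and p-nitrophenol. The means were -0.87 ± 0.50 in o-nitrophenol, -0.26 ± 0.78 in m-nitrophenol and -0.73 ± 2.04 in p-nitrophenol (SD, n = 3 each). Without the arrays numbered 1 they were -1.11, -0.71 and -1.87 (n = 2 each).

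CTR3 is the other high-affinity importer, and in many laboratory strains a Ty2 retrotransposon upstream of it silences the gene; in the RefSeq table the retrotransposon reading frames YLR410W-A and YLR410W-B lie next to it. CTR3 stood at -0.50 and 1.36 on o-nitrophenol arrays 2 and 3, at 1.01 and 0.62 on m-nitrophenol arrays 2 and 3, and at 1.47, 0.17 and -0.18 on the p-nitrophenol arrays. Values of both signs occurred within o- and p-nitrophenol, and the isomers overlapped. The means were 0.43 ± 1.32 in o-nitrophenol (n = 2), 0.82 ± 0.28 in m-nitrophenol (n = 2) and 0.49 ± 0.87 in p-nitrophenol (n = 3) (SD).

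Array 1 held the highest p-nitrophenol value of CUP1-1, CUP1-2, CTR1 and CTR3. Without the arrays numbered 1, CUP1-1 had a mean of 5.30 in o-, 1.60 in m- and 0.66 in p-nitrophenol, and CUP1-2 a mean of 5.36, 1.62 and 1.14 in the same order. The lowest o-nitrophenol value of the 3 metallothionein genes on arrays 2 and 3 was 4.01, for CRS5. The mean log2 ratio of CUP2 was 1.76 in o-nitrophenol and 0.89 in p-nitrophenol without array 1, which held the lowest o-nitrophenol value of the gene. The mean of CTR3 in p-nitrophenol was -0.008 without array 1.

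Values from the high- and low-power scan of an array could be compared for 44 of 54 pairs of a member and an array, and 5 pairs had no value from either scan. The scans differed by a median of 0.21 for the members, against 0.17 for all probes. For o-nitrophenol the largest difference was 1.33, for CUP1-2 on array 3, with 5.70 at high and 4.36 at low power. CUP1-1 on the same array gave 4.76 at high and 5.09 at low power, so the scan with the higher value was not the same for both probes. Every o-nitrophenol scan of CUP1-1, CUP1-2 and CRS5 lay at 3.71 or above. Spot intensities were not analysed here, so saturation and signal over background could not be examined.

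**Figure D2:**
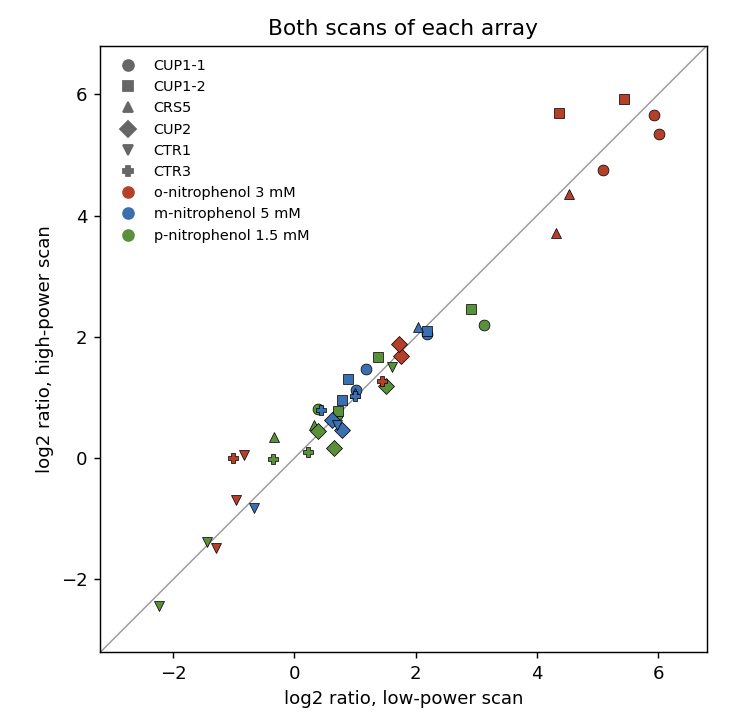
High-power (y axis) against low-power (x axis) log2 ratio of the same array for each member gene, on the diagonal where both scans are equal. Symbols mark genes and colours isomers. The o-nitrophenol points of the metallothionein genes lie between 3.71 and 6.02 on both axes, and the point farthest from the diagonal is CUP1-2 on o-nitrophenol array 3.

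Other genes of copper biology were followed in lists that leave out the members, with limma's moderated test of each isomer mean against 0 and Benjamini-Hochberg adjustment over all 5096 genes. The lists were written with earlier results of these data known. Among all tested genes, o-nitrophenol had 13.8% called higher and 18.7% lower (32.4% in all). The shares were 8.26% higher and 9.65% lower for m-nitrophenol (17.9%), and 13% higher and 11.9% lower for p-nitrophenol (24.9%). Between isomers 1.18% of genes were called for o minus p, 0.726% for o minus m and 0.0196% for m minus p. Values from here are means ± standard error of the fit.

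The surface reductase and Mac1 list had 5 tested genes, of which 1 fell in each isomer and 1 rose in p-nitrophenol. FRE1, which encodes the main surface reductase for copper and iron, stood at -2.90, -2.98 and -3.34 on the o-nitrophenol arrays, at 0.25, -0.98 and -1.46 on the m-nitrophenol arrays, and at -2.58, -1.51 and -1.14 on the p-nitrophenol arrays. It fell by 3.07 ± 0.37 in o-nitrophenol (adjusted p = 0.000422) and by 1.75 ± 0.37 in p-nitrophenol (adjusted p = 0.00848), with 3 of 3 arrays below 0 in both. In m-nitrophenol FRE1 was at -0.73 ± 0.37 (adjusted p = 0.19), and the o minus m difference did not pass (-2.34 ± 0.52, adjusted p = 0.0582).

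MAC1 itself rose by 0.98 ± 0.28 in p-nitrophenol (adjusted p = 0.03, 3 of 3 arrays) and was at -0.24 ± 0.28 in o-nitrophenol and 0.38 ± 0.34 in m-nitrophenol. FRE7, a second reductase gene under Mac1, was at -1.95 ± 0.77 in o-nitrophenol (adjusted p = 0.0749), -0.11 ± 0.77 in m-nitrophenol and -1.42 ± 0.77 in p-nitrophenol (adjusted p = 0.199), and on p-nitrophenol array 1 its value was 1.66 against -3.004 and -2.92 on arrays 2 and 3. IRC7, a cysteine desulphydrase gene, fell by 1.54 ± 0.41 in m-nitrophenol (adjusted p = 0.0275, 3 of 3 arrays). In p-nitrophenol IRC7 was at -1.21 ± 0.41 (adjusted p = 0.0534, 3 of 3 arrays below 0), and in o-nitrophenol at -0.13 ± 0.41 (0.82). The MAC1 call ended without any 1 p-nitrophenol array (adjusted p = 0.0741 to 0.129) and in the fit of all 18 scans (0.189), and the IRC7 call ended without any 1 m-nitrophenol array (0.065 to 0.173). Without p-nitrophenol array 1, 3 genes of this list fell in p-nitrophenol, and without o-nitrophenol array 1 or 2 it was 2; without p-nitrophenol array 1, 2 fell in o-nitrophenol.

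Of 12 tested genes that carry copper inside the cell, 3 rose and 3 fell in o-nitrophenol, 3 rose in m-nitrophenol and 4 rose in p-nitrophenol. The list median was -0.51 in o-, 0.12 in m- and 0.25 in p-nitrophenol. PIC2, a mitochondrial carrier that transports phosphate and copper, stood at 4.64, 2.64 and 2.88 on the o-nitrophenol arrays, at 0.37, -0.07 and 0.86 on the m-nitrophenol arrays, and at 1.88, 0.04 and -0.21 on the p-nitrophenol arrays. It rose by 3.39 ± 0.47 in o-nitrophenol (10.5-fold, adjusted p = 0.000892), with its o-nitrophenol arrays above all others. The o minus m and o minus p differences, 3.00 ± 0.66 and 2.82 ± 0.66, did not pass (adjusted p = 0.0582 and 0.0688).

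ATX1, the cytosolic chaperone that hands copper to the Golgi pump Ccc2, stood at 3.39, 3.52 and 2.00 on the o-nitrophenol arrays, at 2.35 and 0.87 on m-nitrophenol arrays 2 and 3, and at 3.14, 2.10 and 1.17 on the p-nitrophenol arrays. It rose by 2.97 ± 0.46 in o-nitrophenol (adjusted p = 0.00195) and by 2.14 ± 0.46 in p-nitrophenol (adjusted p = 0.0106), and was at 1.61 ± 0.56 in m-nitrophenol (adjusted p = 0.0748). SCO2, a mitochondrial protein of copper delivery to cytochrome oxidase, rose by 1.63 ± 0.32 in o-nitrophenol (adjusted p = 0.00454), 1.06 ± 0.32 in m-nitrophenol (0.0464) and 1.69 ± 0.32 in p-nitrophenol (0.006), on 3 of 3 arrays each.

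CCC2 encodes the pump that fills proteins of the secretory pathway, such as Fet3, with copper. It stood at -0.56 and -0.28 on o-nitrophenol arrays 2 and 3, at 1.73 and 1.40 on m-nitrophenol arrays 2 and 3, and at 1.62, 1.95 and 1.64 on the p-nitrophenol arrays. CCC2 rose by 1.57 ± 0.30 in m-nitrophenol (adjusted p = 0.011) and by 1.74 ± 0.25 in p-nitrophenol (adjusted p = 0.00277), and was at -0.42 ± 0.30 in o-nitrophenol (adjusted p = 0.316). The o minus p difference was -2.16 ± 0.39 (adjusted p = 0.0445), where 0.353% of all genes were called lower, and the o minus m difference was -1.99 ± 0.43 (adjusted p = 0.0673).

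COX17, a copper chaperone of the mitochondrial intermembrane space, rose by 1.93 ± 0.41 in p-nitrophenol (adjusted p = 0.00914), and COX23, another intermembrane-space protein needed for cytochrome oxidase assembly, fell by 1.15 ± 0.29 in o-nitrophenol (adjusted p = 0.0193) and rose by 1.57 ± 0.29 in m-nitrophenol (0.00973). FRE6, a vacuolar reductase gene, fell by 1.26 ± 0.32 in o-nitrophenol (adjusted p = 0.0147). CTR2, which releases copper from the vacuole, was at -1.21 ± 0.44 in o-, -1.30 ± 0.44 in m- and -0.21 ± 0.44 in p-nitrophenol (adjusted p = 0.0592, 0.0668 and 0.755). CCS1, the copper chaperone of superoxide dismutase, was at -0.60 ± 0.41, -0.77 ± 0.50 and 0.25 ± 0.41 in the same order (adjusted p = 0.287 to 0.687).

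Single arrays decided some of these calls. In p-nitrophenol the calls of ATX1 (without array 1 or 2, adjusted p = 0.0527 to 0.0564) and COX17 (without array 1, 0.0509) ended, and 2 genes of the list rose without array 1. The m-nitrophenol calls of CCC2 (0.0876 to 0.169) and COX23 (0.0949 to 0.141) ended without array 2 or 3, each fit then resting on 1 array, and in both fits none of the 3 m-nitrophenol rises remained. The SCO2 call in m-nitrophenol ended in 7 of 9 fits without 1 array (0.0526 to 0.24; those without any m-nitrophenol array or without array 2 or 3 of the other isomers), with low-power scans alone (0.0572), and with values on all 9 arrays required (0.0523). The FRE6 call ended without o-nitrophenol array 2 or 3 (0.0776 to 0.108), as did all 3 falls of the list in o-nitrophenol. The CCC2 difference between o- and p-nitrophenol ended without array 2 or 3 of any isomer (0.105 to 0.179), with each array centred on its median (0.0566) and with quantile normalization (0.0504).

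Of the 3 copper enzyme genes, SOD1 rose and FET3 fell in o-nitrophenol and FET5 rose in p-nitrophenol. FET3, the multicopper oxidase of high-affinity iron uptake, stood at -2.50, -3.06 and -3.65 on the o-nitrophenol arrays, at -2.10, 0.63 and 0.10 on the m-nitrophenol arrays, and at -0.06, -0.86 and -0.67 on the p-nitrophenol arrays. It fell by 3.07 ± 0.46 in o-nitrophenol (adjusted p = 0.00132), with every o-nitrophenol array below every other. The o minus m and o minus p differences of -2.61 ± 0.65 and -2.54 ± 0.65 did not pass (adjusted p = 0.0793 and 0.083).

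SOD1, the cytosolic copper and zinc superoxide dismutase and a known target of Cup2, stood at -0.41, 3.10 and 3.01 on the o-nitrophenol arrays, at 0.07, 0.56 and 1.14 on the m-nitrophenol arrays, and at 2.26, 0.63 and 1.22 on the p-nitrophenol arrays. Array 1 of o-nitrophenol lay below 0 and apart from arrays 2 and 3. The mean rose by 1.90 ± 0.60 in o-nitrophenol (adjusted p = 0.0354, 2 of 3 arrays above 0), a call that ended without o-nitrophenol array 2 or 3, p-nitrophenol array 3 or m-nitrophenol array 2 (0.0515 to 0.223). SOD1 was at 0.59 ± 0.60 in m-nitrophenol and 1.37 ± 0.60 in p-nitrophenol (adjusted p = 0.527 and 0.119). FET5, a vacuolar homologue of Fet3, rose by 1.08 ± 0.28 in p-nitrophenol (adjusted p = 0.0239). That call ended without any 1 p-nitrophenol array (0.0543 to 0.0923) and in the fit of all 18 scans (0.0513). In m-nitrophenol FET5 was at a similar level, 1.125 ± 0.35 (adjusted p = 0.0528, 2 of 2 arrays above 0), and in o-nitrophenol at -0.51 ± 0.28 (0.196). Without o-nitrophenol array 1, 2 enzyme genes rose in p-nitrophenol.

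**Figure D3:**
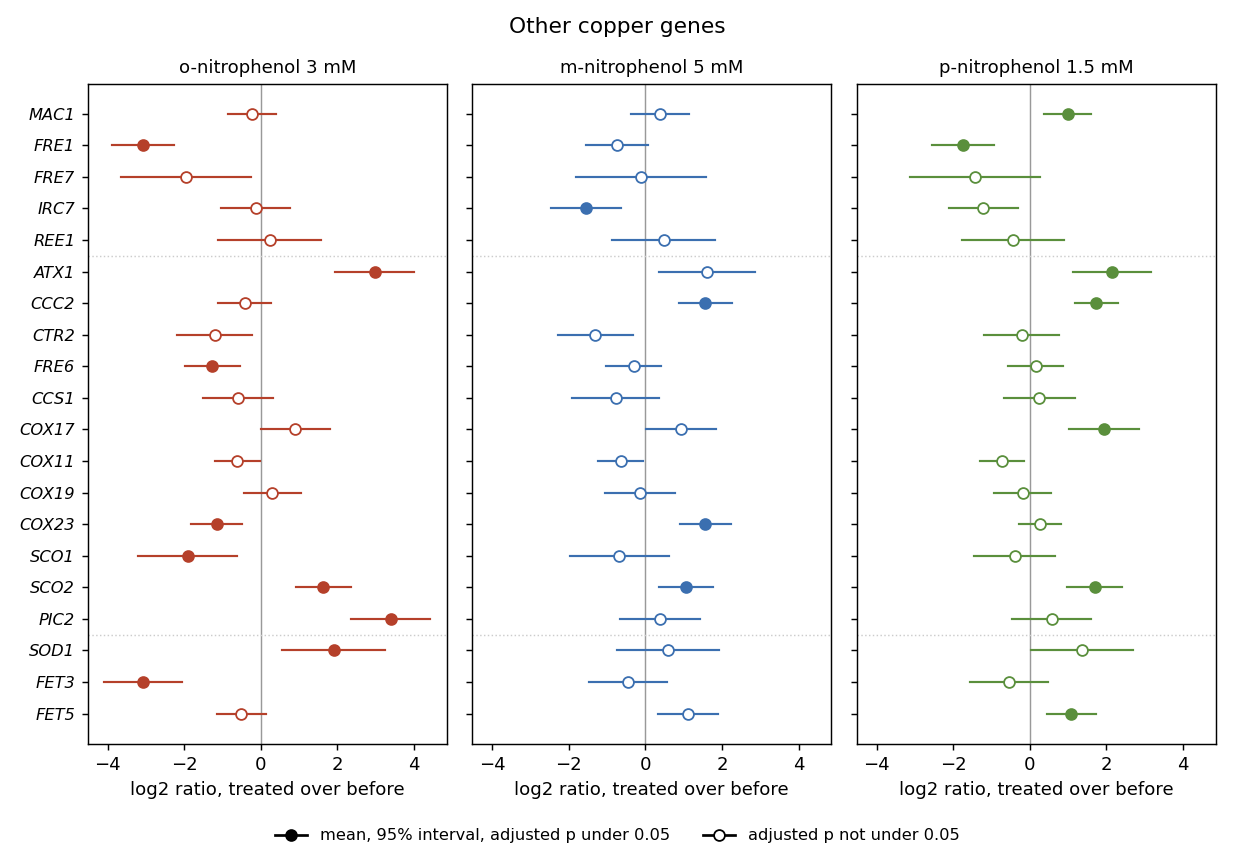
Mean log2 ratio of treated over before-treatment RNA (x axis) with its 95% interval for 20 copper genes (y axis) in the 3 isomers. Filled points passed an adjusted p of 0.05 in limma, and dotted lines separate reductases and Mac1 genes, intracellular copper handling and copper enzymes. FRE1 and FET3 lie lowest and PIC2 and ATX1 highest in o-nitrophenol.

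Genes that handle zinc, iron, manganese and cadmium were followed in a further list. Of its 19 tested genes, 1 rose and 9 fell in o-nitrophenol, 2 rose and 3 fell in m-nitrophenol, and 1 rose and 6 fell in p-nitrophenol, with medians of -0.98, -0.24 and -0.17. ZRC1, the vacuolar zinc importer, fell by 2.03 ± 0.32 in o-nitrophenol (adjusted p = 0.00173), 1.64 ± 0.32 in m-nitrophenol (0.00786) and 1.89 ± 0.32 in p-nitrophenol (0.00348). IZH2, a membrane protein of zinc homeostasis, fell by 2.00 ± 0.34 in o-, 1.49 ± 0.34 in m- and 1.65 ± 0.34 in p-nitrophenol (adjusted p = 0.00235, 0.0155 and 0.00798). CCC1, the vacuolar iron and manganese importer, fell by 1.33 ± 0.31 in o-nitrophenol, 1.83 ± 0.38 in m-nitrophenol and 1.67 ± 0.31 in p-nitrophenol (adjusted p = 0.0116, 0.0117 and 0.00649). IZH1 fell by 2.16 ± 0.40 in o-nitrophenol and 1.45 ± 0.40 in p-nitrophenol (adjusted p = 0.00321 and 0.0251), and was at -1.17 ± 0.40 in m-nitrophenol (0.0659). FET4, a low-affinity importer of iron and copper, fell by 1.65 ± 0.33 in o-nitrophenol (adjusted p = 0.00458), and was at 0.40 ± 0.33 in m-nitrophenol and -0.75 ± 0.33 in p-nitrophenol (0.423 and 0.118). BSD2, which directs metal transporters to the vacuole, rose by 1.34 ± 0.33 in o-nitrophenol, 1.17 ± 0.33 in m-nitrophenol and 1.62 ± 0.33 in p-nitrophenol (adjusted p = 0.0125, 0.0347 and 0.00774).

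Without o-nitrophenol array 3, 4 genes of this list fell in o-nitrophenol, without o-nitrophenol array 2 or 3 the BSD2 call there ended (adjusted p = 0.0885 to 0.0946), and without p-nitrophenol array 2 or 3 it was 3 in p-nitrophenol. Without m-nitrophenol array 2 or 3 the m-nitrophenol calls of ZRC1 (adjusted p = 0.0819 to 0.0916), IZH2 (0.108 to 0.148), CCC1 (0.094 to 0.16) and BSD2 (up to 0.24) ended. The CCC1 call in o-nitrophenol ended without o-nitrophenol array 3 (0.0641) and with low-power scans alone (0.0602), and the IZH1 call in p-nitrophenol ended without any 1 p-nitrophenol array (0.0699 to 0.104). The BSD2 call in m-nitrophenol also ended without p-nitrophenol array 3 (0.0561 at the lowest), with low-power scans alone (0.0545) and in the fit of all 18 scans (0.0602).

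Hsf1 has known binding sites at CUP1, and its targets were listed as other genes that it activates. Of 18 tested genes 11 rose in o-nitrophenol, 4 rose in m-nitrophenol, and 3 rose and 2 fell in p-nitrophenol, with medians of 1.54, 0.12 and 0.03. HSP104, the protein disaggregase, stood at 4.40, 4.29 and 3.35 on the o-nitrophenol arrays, at 1.46, 1.61 and 1.11 on the m-nitrophenol arrays, and at 0.98, 0.67 and 1.15 on the p-nitrophenol arrays. The o-nitrophenol arrays did not overlap with the others, as for the metallothionein genes. HSP104 rose by 4.01 ± 0.27 in o-nitrophenol (16.2-fold, adjusted p = 3.53e-05), 1.39 ± 0.27 in m-nitrophenol (0.00769) and 0.93 ± 0.27 in p-nitrophenol (0.031). The differences of 3.08 ± 0.38 for o minus p (adjusted p = 0.00661) and 2.62 ± 0.38 for o minus m (0.0215) passed, where 0.824% and 0.412% of all genes were called higher.

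SSA4, a stress-induced Hsp70 gene, stood at 1.78, 2.27 and 2.10 on the o-nitrophenol arrays, at 0.20 and -0.16 on m-nitrophenol arrays 2 and 3, and at -0.48, -0.96 and -1.32 on the p-nitrophenol arrays. It rose by 2.05 ± 0.26 in o-nitrophenol (adjusted p = 0.000851), with an o minus p difference of 2.97 ± 0.37 (adjusted p = 0.00897) and an o minus m difference of 2.03 ± 0.41 (0.0546). The Hsp90 co-chaperone genes CPR6 and STI1 rose by 2.41 ± 0.33 and 1.73 ± 0.26 in o-nitrophenol (adjusted p = 0.000882 and 0.00169), and CPR6 rose by 1.51 ± 0.33 in p-nitrophenol (0.0104). SSA3, another stress-induced Hsp70 gene, rose by 1.54 ± 0.33 in o-nitrophenol and 2.81 ± 0.33 in m-nitrophenol, on 2 of 2 arrays each (adjusted p = 0.0112 and 0.00237), and was at -0.10 ± 0.33 in p-nitrophenol. The Hsp90 gene HSP82 rose by 2.31 ± 0.40 in o-nitrophenol and 1.27 ± 0.40 in m-nitrophenol (adjusted p = 0.00243 and 0.0494), and was at 0.74 ± 0.40 in p-nitrophenol (0.195). HSP26, a small heat shock protein gene, stood at 8.41, 5.25 and 5.25 on the o-nitrophenol arrays, at 3.36, 4.70 and 4.23 on the m-nitrophenol arrays, and at 5.93, -0.92 and -1.14 on the p-nitrophenol arrays, so its p-nitrophenol array 1 stood far above arrays 2 and 3, as for CUP1-1. HSP26 rose by 6.30 ± 1.15 in o-nitrophenol and 4.10 ± 1.15 in m-nitrophenol (adjusted p = 0.00311 and 0.0346).

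HSF1 itself rose by 1.08 ± 0.28 in p-nitrophenol (adjusted p = 0.0227) and was at 0.31 ± 0.28 in o-nitrophenol and 0.79 ± 0.34 in m-nitrophenol (0.414 and 0.141). SSA2, a constitutive Hsp70 gene, fell by 1.17 ± 0.32 in p-nitrophenol and SSA4 by 0.92 ± 0.26 (adjusted p = 0.0249 and 0.0314). Without o-nitrophenol array 2 or 3, 6 genes of the list rose in o-nitrophenol. In m-nitrophenol 1 gene rose without m-nitrophenol array 2, and 2 rose without m-nitrophenol array 1 or 3 or o-nitrophenol array 3, and without p-nitrophenol array 2 or 3 none of the 3 rises in p-nitrophenol remained.

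The p-nitrophenol calls of HSP104 (adjusted p = 0.0793 to 0.155) and HSF1 (0.0705 to 0.0861) ended without any 1 p-nitrophenol array, that of CPR6 without array 2 or 3 (0.0529 to 0.0767) that of SSA2 without array 1 or 3 (0.0646 to 0.104), and that of SSA4 in 5 of 9 such fits (without p-nitrophenol or m-nitrophenol array 2 or 3 or o-nitrophenol array 3; 0.0518 to 0.185) and in the fit of all 18 scans (0.101). HSP104 in p-nitrophenol also ended with high-power scans alone (0.0594) and centred arrays (0.0517). In m-nitrophenol HSP104 ended without array 2 (0.0909), HSP26 without any 1 m-nitrophenol array or o-nitrophenol array 3 (0.0513 to 0.206), and HSP82 in 6 of 9 such fits (any m-nitrophenol array, p-nitrophenol array 3 and o-nitrophenol array 2 or 3; 0.0665 to 0.247) and with centred arrays (0.0536). The SSA3 call in o-nitrophenol ended without o-nitrophenol array 2 or 3 (0.0845 to 0.0861) and in the fit of all 18 scans (0.104). The HSP104 differences ended without p-nitrophenol array 2 for o minus p (0.0519), and without m-nitrophenol array 2 or 3 or o-nitrophenol array 2 (0.1 to 0.121), with high-power scans alone (0.0593) and with quantile normalization (0.0724) for o minus m. The SSA4 difference between o- and p-nitrophenol ended without p-nitrophenol array 2 or 3 or o-nitrophenol array 3 (0.0519 to 0.06).

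The genes next to CUP1 on the chromosome were CIC1 on one side of the repeat, YHR054C between both copies, and RSC30 and CPR2 on the other side, by the order of the RefSeq table. YHR054C, whose sequence is shared in part with RSC30, stood at 0.18, 2.68 and 2.80 on the o-nitrophenol arrays, at 0.57 and 0.76 on m-nitrophenol arrays 2 and 3, and at -0.10, 0.09 and 0.31 on the p-nitrophenol arrays. It rose by 1.89 ± 0.46 in o-nitrophenol (adjusted p = 0.0131), and RSC30, a subunit gene of the RSC chromatin remodeller, by 1.37 ± 0.30 (adjusted p = 0.0101, 2 of 2 arrays). CIC1, a gene of ribosome assembly, fell by 1.81 ± 0.39 in o-nitrophenol (adjusted p = 0.00823). It was also below 0 on every array with a value of the other isomers, at -1.50 ± 0.48 in m-nitrophenol (adjusted p = 0.0599) and -0.84 ± 0.39 in p-nitrophenol (0.146). CPR2, a cyclophilin gene, was at 0.91 ± 0.38 in o-nitrophenol (adjusted p = 0.0908) and rose by 1.39 ± 0.38 in p-nitrophenol (0.0257).

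The o-nitrophenol calls of YHR054C (adjusted p = 0.0939 to 0.101) and RSC30 (0.0675 to 0.0947) ended without array 2 or 3, and that of CIC1 without array 3 (0.0511). The CPR2 call ended without any 1 p-nitrophenol array (0.0577 to 0.118), without the 3 arrays numbered 1 (0.0519) and with low-power scans alone (0.134). The o minus p difference of YHR054C was 1.79 ± 0.65 (adjusted p = 0.178) and that of RSC30 0.81 ± 0.38 (0.283), so neither gene was shown to differ between these isomers. For m minus p, none of the 61 tested genes of all lists passed in limma, with 4 at an unadjusted p under 0.05 and 0.0196% of all genes called.

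**Figure D4:**
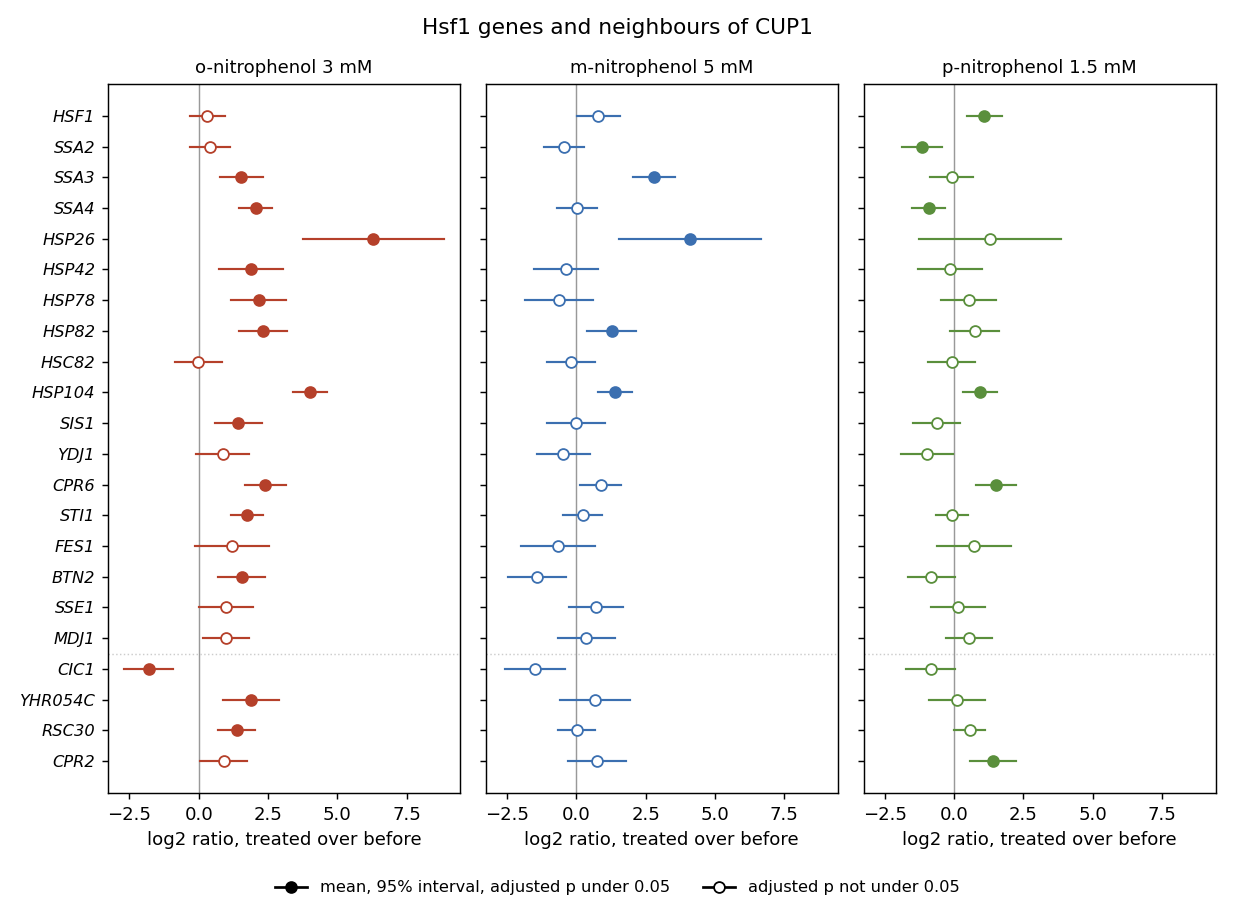
Mean log2 ratio of treated over before-treatment RNA (x axis) with its 95% interval for HSF1, 17 genes it activates and, below the dotted line, 4 neighbours of CUP1 (y axis), in the 3 isomers. Filled points passed an adjusted p of 0.05 in limma. HSP26 and HSP104 lie highest in o-nitrophenol, at 6.30 and 4.01.

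Some genes followed the members closely over the arrays. By Pearson's r over all arrays with a value, CUP1-1 was closest to CUP1-2 (r = 0.985), FSH1 (0.97), AIM29 (0.96), YGR127W (0.96) and YRO2 (0.96) among 1756 genes with values on all 9 arrays. CUP1-2 was closest to CUP1-1, AIM29 (0.97), YGR127W (0.96), AIM7 (0.96) and FSH1 (0.96). As each CUP1 probe can bind transcripts of both copies, the likeness of CUP1-1 and CUP1-2 is not that of separately measured genes. YRO2 had means of 4.91 in o-, 0.76 in m- and 0.73 in p-nitrophenol, and FSH1 means of 3.66, -0.59 and -0.43. CRS5 was closest to PDC1 (r = 0.99), SPS100 (0.98), STP4 (0.98), THI5 (0.98) and SSA4 (0.97) over 7 arrays, among 3647 genes. The mean of SPS100 was 6.61 in o-, 3.91 in m- and 1.62 in p-nitrophenol over those arrays, the same order of isomers as CRS5.

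CUP2 was closest to ILV2 (r = 0.95), RPL16B (0.94), VPS70 (0.94), ATG27 (0.93) and APJ1 (0.93) over 8 arrays, among 3411 genes. CTR1 was closest to the phosphatase genes PHO11 (r = 0.97) and PHO5 (0.93), and then to REE1 (0.91), GTT1 (0.91) and ERG4 (0.91) over 9 arrays. REE1 is a member of the Mac1 list above, and, like CTR1 and FRE7, it was above 0 on p-nitrophenol array 1 (1.87) and below 0 on arrays 2 and 3 (-1.60 and -1.59). The pattern was not common to that list. FRE1 and IRC7 were at -2.58 and -2.10 on p-nitrophenol array 1, each below its values on arrays 2 and 3. CTR3 was closest to PAU22 (r = 0.92), APC9 (0.91), RMI1 (0.90), YCL068C (0.90) and HEM4 (0.89) over 7 arrays, among 4210 genes. The correlations share the arrays, with those numbered 1 standing apart, and are descriptions with no test.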

How the data were processed

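The deposited values are log2 ratios of 18 scans, which the authors normalized by LOWESS, per the labels, using spots of flag value 0. That they are on a log2 scale was read from the values, 13 of which lie at the log2 of 0.01. Background correction, genome build and the rules for missing values are not given in the sources used here. Of 6912 probes 5513 had 1 gene symbol, updated by gene identifier with RefSeq (R64), where 5360 of 5365 genes matched. Both scans of an array, then the probes of a gene, were averaged. limma 3.58.1 (R 4.3.3) fitted isomer means to the 9 arrays, over 5096 genes with values on at least 2 arrays per isomer (6 residual and 4.406 prior degrees of freedom), with Benjamini-Hochberg adjustment and a threshold of 0.05.

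The scripts were tested on simulated data. Members and lists were chosen with earlier results of these data known. All members were named, with listed key genes of copper and heat shock regulation, the neighbours of CUP1, up to 4 called genes per list and isomer with the lowest p, and the 5 genes nearest to each member. FRE2, YCF1 and SSA1 had too few values to be tested.

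Alternatives were high- or low-power scans alone, centred arrays, quantile normalization, the replicate number as a block, each array or the 3 arrays numbered 1 left out, no filter, values on all 9 arrays, 1 probe per gene, and a fit of all 18 scans in which the array was a random effect (statmod 1.5.0).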

Additional observations from a re-analysis of the deposited data

Results flagged for a closer look

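5 differences between isomers passed limma's test of the difference itself among the copper, metal and heat shock genes tested. HSP104 was higher in o- than in p-nitrophenol by 3.08 and higher in o- than in m-nitrophenol by 2.62. SSA4 was higher in o- than in p-nitrophenol, by 2.97. CCC2 had an o minus p difference of -2.16 and COX23 an o minus m difference of -2.71, which rested on 2 arrays of each isomer (-1.19 and -1.11 in o-, 1.65 and 1.49 in m-nitrophenol, adjusted p = 0.0387). The COX23 call ended without array 2 or 3 of any isomer (adjusted p = 0.0696 to 0.236) and with high-power scans alone (0.0593).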

How the results depend on the processing

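The number of genes called in limma was 1652 in o-, 913 in m- and 1267 in p-nitrophenol, and 60 for o minus p, 37 for o minus m and 1 for m minus p. Among the copper, metal and heat shock genes it was 33, 13 and 20 for the isomers and 3, 2 and 0 for the differences. Without the 3 arrays numbered 1 the counts were 2573, 1993 and 2103, then 1077, 1037 and 291, with 27 list genes in m-nitrophenol and 30, 25 and 6 for the differences. With values on all 9 arrays required, 592, 373 and 525 genes were called, 23 for o minus p and 0 for m minus p, and 18, 7 and 11 list genes for the isomers and 1 each for o minus p and o minus m; fewer genes were tested. Low-power scans alone gave 111, 146 and 2 genes for the differences, with 7, 7 and 1 list genes. High-power scans alone gave 12 genes and 0 list genes for o minus m. Centring gave 66 genes and 4 list genes for o minus m, and quantile normalization 2 genes for m minus p. The fit of all 18 scans, the array being a random block (correlation of scans 0.909), gave 155, 191 and 2 genes for the differences and 10 and 9 list genes for o minus p and o minus m. The replicate numbers were shared by the isomers, but the main fit did not pair the arrays by them. Deviations of same-numbered arrays from their isomer means correlated at 0.061 to 0.366 over 1757 genes, above 0.1 in 8 of 9 pairs. For arrays of different number the correlations were -0.351 to 0.226, above 0.1 in 4 of 18 pairs. Arrays of the same number thus tended to be more alike, although the ranges overlapped, and the main fit ignores this. The deviations of an isomer's arrays sum to 0 for each gene, so both sets of correlations are tied to each other. With the replicate block 189, 180 and 0 genes were called for the differences, and 9 and 10 list genes for o minus p and o minus m. With the block the m-nitrophenol call of SCO2 ended (adjusted p = 0.0519).

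With each array left out, calls ranged from 841 to 1925 in o-, 147 to 1277 in m- and 499 to 1701 in p-nitrophenol, 6 to 211 for o minus p, 2 to 293 for o minus m and 0 to 4 for m minus p. For list genes they ranged from 15 to 39, 1 to 18 and 9 to 24 for the isomers, 0 to 10 for o minus p and 0 to 17 for o minus m, with 0 throughout for m minus p. The lowest isomer counts came without o-nitrophenol array 3, m-nitrophenol array 2 and p-nitrophenol array 2. Among the members, quantile normalization gave o-nitrophenol levels of 4.37 for CUP1-1, 4.41 for CUP1-2 and 3.43 for CRS5, and low-power scans alone 4.91 for CUP1-2 and 4.42 for CRS5. CUP2 in m-nitrophenol was at 0.55 with high-power scans alone or centring, 0.70 with low-power scans and 0.61 with quantile normalization. The cause of these moves was not tested.

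Some levels that had not passed changed sign. With high-power scans alone YHR054C in p-nitrophenol was at -0.025 and MAC1 in o-nitrophenol at 0.026, and with low-power scans alone FET3 in m-nitrophenol was at 0.41. RSC30 in m-nitrophenol was at -0.041 with low-power scans, -0.072 centred, -0.086 with quantile normalization and -0.013 with the replicate block. Without the 3 arrays numbered 1, FET3 in m-nitrophenol was at 0.36 and CCS1 in o-nitrophenol at 0.009. With single arrays left out, the levels ranged in o-nitrophenol from -1.18 to 0.009 for CCS1, in m-nitrophenol from -0.999 to 0.36 for FET3, -0.65 to 0.43 for FRE7, -0.19 to 0.20 for RSC30 and -0.073 to 1.56 for CPR2, and in p-nitrophenol from -0.78 to 0.086 for CTR2 (0.065 in a further fit) and -0.002 to 0.20 for YHR054C. Several levels not past the threshold passed it in some alternative fits. FRE7 passed in 2 of 19 fits for p-nitrophenol, with a lowest level of -2.965 over the fits, and in 3 of 19 for o-nitrophenol. CTR2 passed in 4 of 19 fits each for o- and m-nitrophenol, and SOD1 in 4 of 19 for p-nitrophenol. The number of arrays limits the precision.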
